A study of Homo sapiens with 12 samples.

Results

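Collagens are the most abundant proteins of the extracellular matrix, and each is a triple helix wound from 3 α chains, which may be products of the same gene or of different genes. Fibrillar collagens (types I, III, V, XI, XXIV and XXVII) form the banded fibres of connective tissue, whereas network collagens (types IV and VIII) form sheets, with type IV as the scaffold of every basement membrane. Beaded filament collagens such as type VI link cells to the matrix, type VII forms the anchoring fibrils under epithelia, and the FACIT collagens (types IX, XII, XVI, XXI and XXII among others) sit on the surface of fibres or beneath basement membranes. Type XVII is a transmembrane collagen of the hemidesmosomes that hold basal epithelial cells, urothelium included, to the basement membrane, and type XVIII is a multiplexin of basement membranes. In most tissues fibroblasts make the bulk of type I collagen, whereas epithelial cells make types IV, VII, XVII and XVIII.

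The family comprised the 44 gene symbols of the form COLnAn in the count tables, of 23064 symbols in all, and 34 of the 44 had a mean of 10 or more estimated counts in at least 1 cell line. This family was selected on a measured value, the fall of COL1A1 after KMT9α knockdown, which is therefore given below as a description with no test. The other members entered by name alone. The cells were those of CAL-29 and 5637, both long-established lines from human bladder carcinomas and labelled as wild type, and RNA was sequenced at day 3 after transfection with a control siRNA (siCtrl) or with an siRNA against KMT9α (siKMT9α), with 3 libraries for each siRNA in each line and 12 in all. KMT9α, encoded by N6AMT1, is the catalytic chain of a histone lysine methyltransferase. The lines were grown in different media and transfected with different reagents, with the lower siRNA concentration in CAL-29 cells, so line, medium, reagent and concentration cannot be told apart. Which of the study's siRNAs against KMT9α was used is not stated in the labels, whereas the text of the study names siKMT9α#1 for the sequencing. Nothing in the labels says that the 3 libraries of a group came from separate cultures, so p-values measure only the spread between these samples.

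Libraries held between 2.45e+07 and 3.52e+07 counts. N6AMT1 fell in CAL-29 cells from 11.4, 10.2 and 9.68 to 2.82, 2.93 and 1.99 CPM (counts relative to the library total, scaled by the trimmed mean of M-values, TMM, within each line), and in 5637 cells from 13.4, 13.2 and 13.3 to 3.75, 2.22 and 2.56 CPM. No siKMT9α library overlapped the siCtrl libraries of its line. Such a gap was common: of all genes tested, 36.7% lay lower and 35.6% higher without overlap in CAL-29 cells. In 5637 cells these shares were 36.6% and 35.8%. All 10 epithelial markers examined, among them EPCAM, CDH1 and KRT5, had a mean of at least 1 CPM in both lines, and their summed level moved with the siRNA, from 15018 to 15569 CPM down to 7620 to 7825 CPM in CAL-29 cells and from 9681 to 10125 down to 6614 to 6835 CPM in 5637 cells. The mean was lower with siKMT9α for 8 of the 10 in CAL-29 and 9 of the 10 in 5637 cells, and higher for ESRP1 in both lines (214 and 249 CPM, 87.6 and 125 CPM) and for KRT7 in CAL-29 cells (77.4 and 94.2 CPM). Of 10 fibroblast markers, 2 reached 1 CPM in CAL-29 siCtrl cells (FAP and FBLN1) and 5 in 5637 siCtrl cells (PDGFRA, PDGFRB, THY1, FAP and FBLN1). The sum of the 10 went from 670 to 711 down to 537 to 630 CPM and from 389 to 417 down to 267 to 276 CPM. FBLN1 was the highest, at a mean of 567 CPM in CAL-29 and 337 CPM in 5637 siCtrl cells. With siKMT9α the mean was lower for 6 and higher for 3 in CAL-29 cells, and lower for 8 and higher for 0 in 5637 cells. DCN, LUM, DPT, TCF21 and POSTN stayed below 1 CPM in the mean of every group. The part of these shifts in the collagen changes was not tested, and in bulk RNA fewer cells of a type and less RNA per cell cannot be told apart.

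The collagen family, COL1A1 included, took 0.548% to 0.603% of all counts in CAL-29 siCtrl libraries and 0.324% to 0.343% in siKMT9α libraries, without overlap. In 5637 cells it took 0.432% to 0.447% and 0.379% to 0.395%. With COL1A1, on which the family was chosen, left out, the shares were 0.534% to 0.588% and 0.323% to 0.342% in CAL-29 cells. In 5637 cells they were then 0.395% to 0.409% and 0.375% to 0.391%, and the summed levels overlapped, from 3895 to 4036 CPM with siCtrl and from 3820 to 3964 CPM with siKMT9α. Of the 34 expressed members, 30 reached a mean of 10 counts in CAL-29 cells, 25 in 5637 cells and 21 in both. Just inside this limit stood COL25A1 with a mean of 16.8 counts in 5637 cells and COL24A1 with 17.0 counts in CAL-29 cells, and just outside it COL2A1 with 9.83 and COL15A1 with 7.92 counts in the line where each was higher. The 10 members below the limit were COL2A1, COL6A5, COL6A6, COL9A1, COL10A1, COL14A1, COL15A1, COL19A1, COL20A1 and COL23A1. COL9A1 had 0 counts in all 12 libraries, which allows up to 3 counts over the 3 libraries of a group, and the highest count of any of the 10 in a library was 19.

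The 3 head-to-head type IV gene pairs share promoters, and the sequence between COL4A1 and COL4A2 is shown because these genes had the highest siCtrl levels per kilobase among the collagens found in both lines. COL4A1 and COL4A2 encode the chains of the widely expressed type IV network, COL4A3 with COL4A4 and COL4A5 with COL4A6 those of more restricted basement membranes. In RefSeq on GRCh38.p14 the start sites of each pair lie 127 bases (COL4A1 and COL4A2), 419 bases (COL4A3 and COL4A4) and 380 bases (COL4A5 and COL4A6) apart on opposite strands. The window of 300 bases around the start of COL4A2, chr13:110307034-110307333 on the plus strand, is given 5′ to 3′ with the CCAAT box and the GC box GGGCGG (searched on both strands) in capitals.
COL4A2: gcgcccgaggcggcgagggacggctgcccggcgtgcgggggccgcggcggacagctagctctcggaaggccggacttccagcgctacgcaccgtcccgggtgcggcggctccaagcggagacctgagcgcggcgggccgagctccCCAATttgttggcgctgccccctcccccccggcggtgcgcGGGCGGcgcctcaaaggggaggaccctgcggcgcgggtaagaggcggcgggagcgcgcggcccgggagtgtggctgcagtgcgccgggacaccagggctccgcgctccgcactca
The single CCAAT starts 105 bases before the start of COL4A2, and on the opposite strand the same box starts 26 bases before that of COL4A1. CCAAT was found in 34.6% and GGGCGG in 45.0% of the 35116 promoter windows of this length. Of the 34 expressed collagens 26 had a window, 10 of them with CCAAT and 18 with GGGCGG, counting a gene once if any of its windows held the box. These matches are letters in a window and were not tested for binding.

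A second set of sequences shows the 3′ UTR sites in expressed members that pair with bases 2 to 8 of the siKMT9α#1 guide, the stretch through which an siRNA can bind other transcripts. The heptamer ACATTCA was looked for in the longest 3′ UTR of each gene (GENCODE on GRCh37, the assembly of hg19) and is in capitals, with 11 bases on each side.
COL18A1: gcctgatgctgACATTCAcctgccccaac
COL27A1: caaagagccccACATTCAagccaacttga
COL4A2: tgagaccctgaACATTCActgataaagtg
COL21A1 site 1: tgaaatatttcACATTCAgcctccatgca
COL21A1 site 2: agtttcattgtACATTCAaagaaaatgta
They lie at chr21:46932507-46932535 (plus strand), chr9:117073291-117073319 (plus), chr13:111013348-111013376 (plus, in the longest but not the canonical 3′ UTR), chr6:55922118-55922146 (minus) and chr6:55921738-55921766 (minus). These were the only expressed members with the site, 4 of 34 or 11.8%, beside 1908 of the 12394 genes tested in both lines that had a 3′ UTR of at least 50 bases, or 15.4%. No copy of ACATTCA was found in the 3′ UTR of COL1A1 or COL1A2. For the other siRNA of the study, which is shifted along the same target, the heptamer CACATTC was present in 5 of 34 members (14.7%) and in 13.8% of the genes. No test was made on these shares, and no match says only that the letters are absent from this window.

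**Figure D1:**
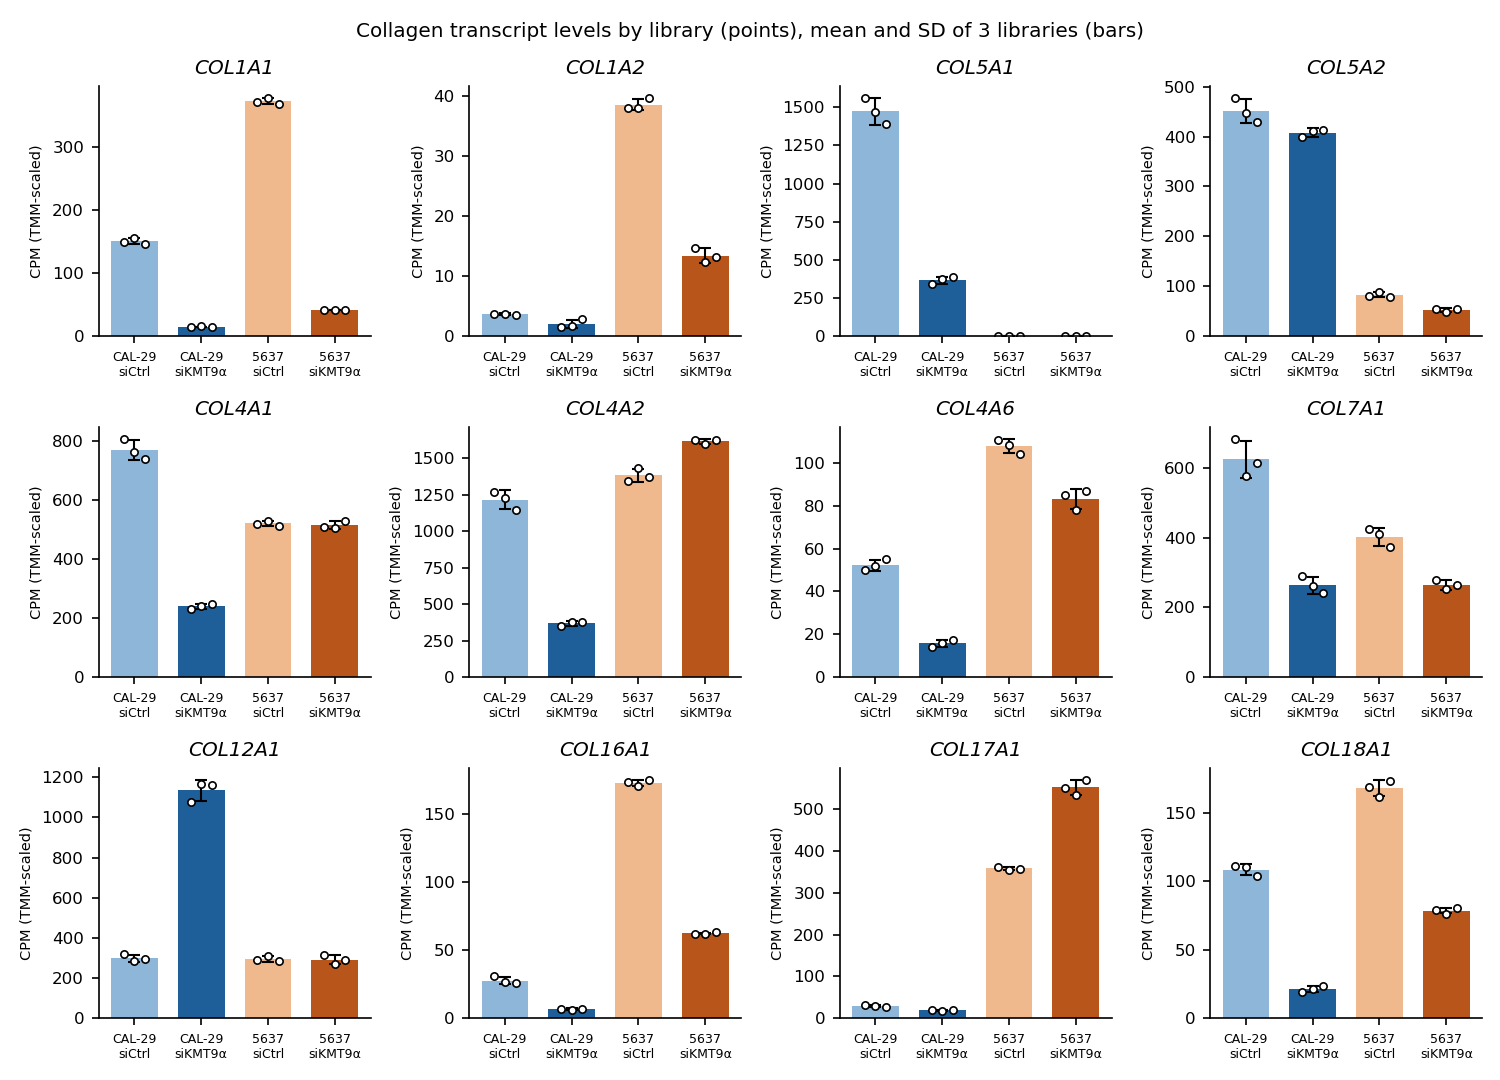
TMM-scaled CPM (y axis, each panel with its own scale from 0) of 12 collagen genes in the 4 groups (x axis), with 1 point for each library, bars for the mean of 3 libraries and error bars for the SD. COL1A1 went from a mean of 150.5 to 14.9 CPM in CAL-29 cells and from 372 to 41.8 CPM in 5637 cells, COL5A1 was at 0 in 5637 cells, and COL12A1 stood higher with siKMT9α in CAL-29 cells alone.

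The main chain of type I collagen, COL1A1 (chr17:48261462-48278993 on GRCh37, minus strand), had 149, 156 and 147 CPM in CAL-29 siCtrl libraries and 14.7, 15.6 and 14.6 CPM with siKMT9α, a log2 fold change of -3.33 (SE 0.06) or 10.1-fold lower. In 5637 cells it went from 371, 378 and 369 CPM with siCtrl to 41.6, 42.0 and 41.7 CPM with siKMT9α, a log2 fold change of -3.16 (SE 0.04) or 8.91-fold lower. No library of one siRNA came near those of the other in either line. The groups stand apart by the choice of this gene, and no test is given.

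COL1A2, which encodes the partner chain in the type I heterotrimer, had 3.75, 3.75 and 3.48 CPM in CAL-29 siCtrl libraries and 1.62, 1.74 and 2.86 CPM with siKMT9α. All 3 siKMT9α libraries were lower, but the log2 fold change of -0.84 (SE 0.21) did not pass the threshold of the study, an unadjusted p below 1e-06 by which changes are called here (edgeR quasi-likelihood test, here and below with the Benjamini-Hochberg adjusted p = 0.0012). In 5637 cells COL1A2 fell from 38.0, 38.0 and 39.7 to 14.8, 12.4 and 13.1 CPM, a log2 fold change of -1.52 (SE 0.06, edgeR adjusted p = 1.7e-18). In both lines COL1A2 changed by less than COL1A1, so the ratio of COL1A1 to COL1A2 in CPM per kilobase of transcript went from 35.3 ± 1.05 (SD, n = 3) to 6.60 ± 1.94 in CAL-29 cells and from 8.28 ± 0.281 to 2.68 ± 0.247 in 5637 cells, without overlap between the siRNAs. The ratio in CAL-29 siKMT9α libraries was 7.77, 7.67 and 4.36, the lowest belonging to the library with the highest COL1A2.

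Across the family, 31 members other than COL1A1 passed the filter on low counts in CAL-29 cells. Of these 16 fell and 1 rose at p below 1e-06, where 15.0% of the 14673 genes tested fell and 15.0% rose. Among the 16 is COL5A3, which passed the filter only through the siCtrl group, where it was high. At a Benjamini-Hochberg adjusted p below 0.05 the members gave 25 lower and 3 higher, beside 35.2% and 34.3% of all genes. The 25 also hold COL8A2, COL21A1 and COL28A1, and the 3 hold COL8A1. Each of these passed the filter through the group where it was high. The median log2 fold change was -0.99 over the 31 members and -0.02 over all genes. In 5637 cells 25 members other than COL1A1 were tested, of which 9 fell and 4 rose at p below 1e-06, beside 17.6% and 18.0% of 14335 genes, and 14 fell and 6 rose at the adjusted threshold, beside 35.6% and 35.1%. Their median was -0.37, that of all genes -0.01. Among the 14 are COL2A1 and COL25A1, which passed the filter through the siCtrl group, where they were high. COL2A1, below the limit of 10 counts, had 17.5, 15 and 15 counts with siCtrl and 1.5, 7 and 3 counts with siKMT9α. Without overlap between the siRNAs, 25 of the 31 members lay lower and 3 higher in CAL-29 cells, beside 36.7% and 35.6% of all genes. In 5637 cells 15 of the 25 lay lower and 6 higher, beside 36.6% and 35.8%. The members that passed the filter through the group where they were high are in these counts as well. These counts come from the contrast on which the family was chosen, and nothing is read from them beyond the values.

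Of the 22 members other than COL1A1 tested in both lines, 5 fell past 1e-06 in both (COL4A6, COL6A2, COL7A1, COL16A1 and COL18A1), where 8.49% of 13674 genes did. None rose in both lines with edgeR or DESeq2 at this threshold, nor with edgeR at an unadjusted p below 0.05. COL4A2, COL17A1 and COL27A1 passed in opposite directions, falling in CAL-29 and rising in 5637 cells, where 1.76% of all genes passed in opposite directions either way round. The CAL-29 call of COL17A1 and the 5637 call of COL4A2 were lost under some alternatives, given with each gene below.

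**Figure D2:**
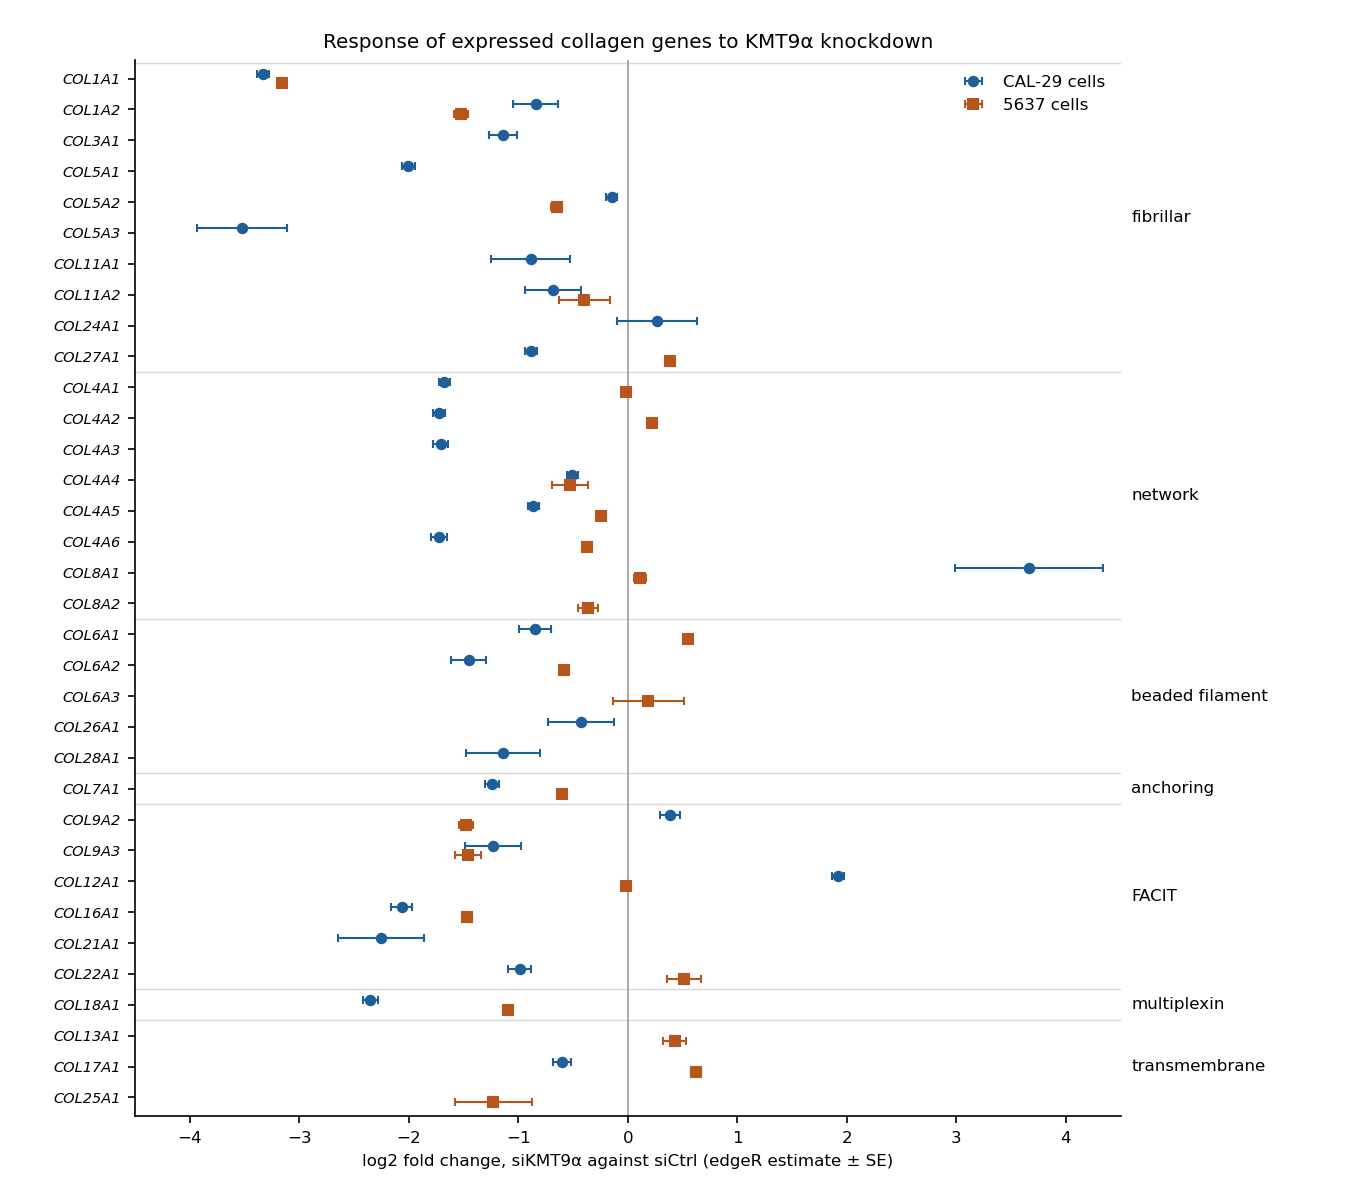
Log2 fold change of siKMT9α against siCtrl (x axis, edgeR estimate with SE as error bars) for each expressed collagen (y axis), arranged by class, in CAL-29 cells (circles) and 5637 cells (squares); a gene is drawn in a line only where it had a mean of 10 or more counts. Most CAL-29 points lie below 0, with COL12A1 at 1.92 and COL8A1 at 3.67 as the far points above it, and the 5637 points of COL4A1 and COL12A1 lie at -0.02.

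Among the other fibrillar chains, COL5A1, the main chain of type V collagen that nucleates type I fibrils, was the collagen with the most counts in CAL-29 cells and fell there from 1561, 1468 and 1388 to 342, 374 and 385 CPM. This was a log2 fold change of -2.00 (SE 0.06, edgeR adjusted p = 4.7e-17), 4.01-fold lower, without overlap. It had 0 counts in all 6 libraries of 5637 cells, so no response could be measured. Its partner COL5A2 had 477, 447 and 429 CPM in CAL-29 siCtrl and 398, 411 and 414 CPM in siKMT9α libraries, a log2 fold change of -0.15 (SE 0.05, edgeR adjusted p = 0.013) that did not pass. The COL5A1 to COL5A2 ratio per kilobase went from 2.64 ± 0.0189 to 0.728 ± 0.0301 in CAL-29 cells. In 5637 cells COL5A2 fell from 81.2, 88.5 and 79.4 to 54.4, 49.0 and 55.2 CPM (log2 fold change -0.65, SE 0.05, edgeR adjusted p = 8.9e-13).

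COL27A1, a fibrillar collagen of cartilage and developing tissues, had 86.0, 79.3 and 77.8 CPM in CAL-29 siCtrl libraries and 42.5, 44.9 and 44.7 CPM with siKMT9α (log2 fold change -0.88, SE 0.05, edgeR adjusted p = 9.4e-12). In 5637 cells the gene went the other way, from 64.5, 62.9 and 58.1 to 81.0, 78.7 and 82.5 CPM (0.39, SE 0.04, edgeR adjusted p = 4.5e-09). The groups did not overlap in either line. COL3A1, the chain of type III collagen, fell in CAL-29 cells from between 20.7 and 23.2 to between 6.98 and 12.4 CPM (log2 fold change -1.14, SE 0.13, edgeR adjusted p = 1.6e-07), a call lost without siCtrl replicate 2 (-1.10, adjusted p = 8.9e-06) and with DESeq2 (-1.12, adjusted p = 1.1e-05). It had 2 counts in the 6 libraries of 5637 cells together.

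The remaining fibrillar members were scarce. COL5A3 fell in CAL-29 cells from 59.5, 50 and 32.5 counts to 7, 3 and 4 counts (log2 fold change -3.52, SE 0.41). It passed the filter only through the siCtrl group, where it was high, so the fold is given as a description. Of its exon bases 3.98% overlap another gene on the other strand. The call was lost without siCtrl replicate 2 (-3.48) or siKMT9α replicate 2 (-3.21) or 3 (-3.52). COL11A1, COL11A2 and COL24A1, at or below 2.94 CPM in every library, had log2 fold changes of -0.89, -0.68 and 0.27 in CAL-29 cells and passed at 1e-06 in neither line.

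In the network class, 6 of the 6 type IV chains fell past 1e-06 in CAL-29 cells, where 15.0% of all genes did, in the contrast on which the family was chosen. COL4A1 went from 806, 761 and 737 to 232, 241 and 248 CPM (log2 fold change -1.68, SE 0.05, edgeR adjusted p = 9.4e-17) and COL4A2 from 1271, 1230.0 and 1146 to 348, 378 and 379.6 CPM (-1.72, SE 0.05, edgeR adjusted p = 2.0e-16). These partners of the shared promoter shown above changed by the same amount within their errors, and their ratio per kilobase was 0.623 ± 0.0120 before and 0.643 ± 0.0153 after knockdown, with overlapping libraries.

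In 5637 cells COL4A1 had 519.6, 530.0 and 512 CPM with siCtrl and 509, 505 and 529.7 CPM with siKMT9α. The groups overlapped, and the log2 fold change was -0.02 (SE 0.03, edgeR adjusted p = 0.65). COL4A2 rose from 1344, 1433 and 1374 to 1623, 1597 and 1629 CPM (0.22, SE 0.03, edgeR adjusted p = 1.3e-07), a call lost without siKMT9α replicate 3 (0.22, adjusted p = 5.4e-06) and with upper quartile scaling (0.18, adjusted p = 3.6e-06). Here the ratio of COL4A1 to COL4A2 went from 0.371 ± 0.00888 to 0.314 ± 0.00604, without overlap.

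The other head-to-head pairs did not keep their proportions in CAL-29 cells. COL4A3 fell from 63.4, 53.3 and 55.3 to 17.0, 17.6 and 18.0 CPM (log2 fold change -1.71, SE 0.07, edgeR adjusted p = 1.4e-14) and COL4A4 from 294, 277 and 278 to 185, 205 and 208 CPM (-0.51, SE 0.05, edgeR adjusted p = 2.1e-08), so their ratio per kilobase went from 0.251 ± 0.0150 to 0.109 ± 0.00396. Some exon bases of COL4A3, 6.82%, overlap an annotated transcript on the other strand, and counting used Homer's default settings, whose strand option the sources used here do not spell out. In 5637 cells COL4A3 stayed below 0.43 CPM and COL4A4 had 2.64, 2.79 and 2.95 CPM with siCtrl and 2.06, 1.99 and 1.77 CPM with siKMT9α (-0.53, SE 0.17, edgeR adjusted p = 0.0061), which did not pass.

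COL4A5, the X-linked chain lost in Alport syndrome, fell in CAL-29 cells from 179.6, 168 and 155 to 88.6, 91.9 and 96.4 CPM (log2 fold change -0.86, SE 0.05, edgeR adjusted p = 1.3e-11). In 5637 cells it had 80.7, 79.7 and 77.5 CPM with siCtrl and 69.7, 63.1 and 68.4 CPM with siKMT9α (-0.24, SE 0.04, edgeR adjusted p = 1.1e-05), short of the threshold but past it under scaling by total counts (-0.29, adjusted p = 9.4e-07) and upper quartile scaling (-0.28, adjusted p = 1.1e-06). Its neighbour COL4A6 fell in both lines, from 49.97, 51.9 and 55.0 to 14.0, 16.2 and 17.4 CPM in CAL-29 cells (-1.73, SE 0.07, edgeR adjusted p = 2.7e-14) and from 111, 108 and 104 to 84.9, 78.0 and 86.7 CPM in 5637 cells (-0.37, SE 0.04, edgeR adjusted p = 3.7e-09). The COL4A5 to COL4A6 ratio per kilobase went from 3.29 ± 0.392 to 5.99 ± 0.442 in CAL-29 cells and from 0.754 ± 0.00810 to 0.826 ± 0.0165 in 5637 cells, without overlap in either line.

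Type VIII collagen, a network of vessel walls and the cornea, was found mainly in 5637 cells. COL8A1 had 29.6, 32.5 and 29.4 CPM there with siCtrl and 33.9, 30.6 and 34.2 CPM with siKMT9α, with overlap (log2 fold change 0.11, SE 0.06, edgeR adjusted p = 0.089). In CAL-29 cells it had 0, 4 and 0 counts with siCtrl and 24.5, 27 and 13 counts with siKMT9α (3.67, SE 0.67), so the estimate rests on 4 counts in 1 control library. The gene passed the filter only through the siKMT9α group, where it was high, so the fold is given as a description. It did not pass 1e-06, but did with no filter on low counts (3.67) and with the replicate block (3.66). COL8A2 lay between 7.39 and 10.2 CPM in 5637 cells (-0.37, SE 0.09, edgeR adjusted p = 7.6e-04) and did not pass. In CAL-29 cells it was measured at 0.529 CPM or less, with 10.5, 12 and 14.5 counts with siCtrl and 4, 7 and 1 counts with siKMT9α (-1.77, SE 0.53). There it passed the filter only through the siCtrl group, where it was high, so this fold is given as a description.

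Of the beaded filament class, COL6A1 and COL6A2, which lie side by side on chromosome 21 and encode obligate partners of type VI collagen, responded unequally. COL6A2 fell in CAL-29 cells from 6.53, 5.24 and 6.35 to 2.27, 2.38 and 1.91 CPM (log2 fold change -1.45, SE 0.16, edgeR adjusted p = 1.0e-07) and in 5637 cells from 118, 123 and 119 to 80.6, 82.7 and 77.3 CPM (-0.58, SE 0.04, edgeR adjusted p = 4.9e-14). COL6A1 had 12.2, 8.83 and 8.69 CPM with siCtrl and 5.87, 6.04 and 4.45 CPM with siKMT9α in CAL-29 cells (-0.85, SE 0.15, edgeR adjusted p = 2.9e-05, short of the threshold but past it with DESeq2 at an adjusted p = 6.6e-07), and it rose in 5637 cells from 53.3, 54.4 and 54.7 to 77.2, 78.5 and 81.4 CPM (0.55, SE 0.04, edgeR adjusted p = 1.1e-12). The siRNA groups did not overlap for either gene in either line. The COL6A1 to COL6A2 ratio per kilobase went from 1.35 ± 0.210 to 2.04 ± 0.110 in CAL-29 cells and from 0.370 ± 0.00662 to 0.809 ± 0.0471 in 5637 cells. The third chain, COL6A3, stayed below 0.83 CPM in every library, and COL26A1 and COL28A1, found in CAL-29 cells at up to 1.74 and 1.18 CPM, did not pass (-0.42 and -1.14). COL28A1 had 29, 22.5 and 29 counts with siCtrl and 18.5, 16.5 and 7.5 counts with siKMT9α. It passed the filter through the siCtrl group, where it was high, so its fold is given as a description.

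COL7A1, the anchoring fibril collagen (chr3:48601506-48632762 on GRCh37, minus strand), fell in both lines. It had 682, 576 and 612 CPM in CAL-29 siCtrl libraries and 289, 261 and 241 CPM with siKMT9α (log2 fold change -1.24, SE 0.07, edgeR adjusted p = 7.0e-13). The 5637 libraries went from 423, 409.6 and 374 to 279, 252 and 263 CPM (-0.60, SE 0.04, edgeR adjusted p = 7.3e-14). The siKMT9α libraries were lower than every siCtrl library in each line.

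The FACIT class held the clearest exception. COL12A1 (chr6:75794042-75915983 on GRCh37, minus strand), a fibril-associated collagen of dense connective tissue, rose in CAL-29 cells from 319, 286 and 293 to 1075, 1166 and 1162 CPM (log2 fold change 1.92, SE 0.06, edgeR adjusted p = 4.1e-17), 3.79-fold higher, and was the single member to rise past 1e-06 in that line. In 5637 cells it had 288, 311 and 287 CPM with siCtrl and 317, 271 and 288 CPM with siKMT9α, overlapping, with a log2 fold change of -0.02 (SE 0.04, edgeR adjusted p = 0.74). Control levels of the lines were close, 299 ± 17.4 and 295 ± 13.7 CPM (SD, n = 3).

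COL16A1, which binds to fibril and microfibril networks, fell from 30.7, 26.3 and 25.9 to 7.08, 5.92 and 6.84 CPM in CAL-29 cells (log2 fold change -2.07, SE 0.10, edgeR adjusted p = 1.2e-13) and from 173, 170.5 and 175 to 61.9, 62.2 and 63.0 CPM in 5637 cells (-1.47, SE 0.04, edgeR adjusted p = 4.7e-24). Neither line showed overlap. COL9A2, a chain of cartilage type IX collagen, fell in 5637 cells from 45.6, 41.4 and 45.8 to 17.5, 15.6 and 14.8 CPM (-1.48, SE 0.06, edgeR adjusted p = 2.8e-18), whereas in CAL-29 cells it had 15.5, 13.9 and 13.8 CPM with siCtrl and 17.3, 19.1 and 20.2 CPM with siKMT9α (0.39, SE 0.09, edgeR adjusted p = 5.5e-04), which did not pass. Its partner COL9A3 fell in 5637 cells from between 8.42 and 8.93 to between 2.82 and 3.69 CPM (-1.46, SE 0.12, edgeR adjusted p = 7.9e-12) and had a log2 fold change of -1.23 (SE 0.26, edgeR adjusted p = 2.6e-04) in CAL-29 cells. Of its exon bases 3.20% overlap exons of TCFL5 on the other strand. The COL9A2 to COL9A3 ratio per kilobase thus stayed at 4.51 ± 0.396 and 4.53 ± 0.804 in 5637 cells, with overlap, and went from 6.42 ± 0.858 to 19.6 ± 1.51 in CAL-29 cells.

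COL22A1, a collagen of tissue junctions, fell in CAL-29 cells from between 23.4 and 26.8 to between 10.9 and 15.3 CPM (log2 fold change -0.99, SE 0.10, edgeR adjusted p = 3.8e-08). In 5637 cells it lay between 2.51 and 3.11 CPM with siCtrl and between 3.18 and 4.53 CPM with siKMT9α (0.51, SE 0.15, edgeR adjusted p = 0.0044), which did not pass. COL21A1 was found in CAL-29 cells with 27, 26.5 and 48 counts with siCtrl and 6, 7 and 11 counts with siKMT9α (-2.25, SE 0.39). It was counted mainly in the siCtrl group and passed the filter through that group, where it was high, so the fold is given as a description.

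COL18A1, the precursor of endostatin (chr21:46825080-46933634 on GRCh37, plus strand), had the largest called fall among well-expressed members of CAL-29 cells other than COL1A1. It went from 111, 111 and 104 to 19.0, 21.5 and 23.5 CPM (log2 fold change -2.35, SE 0.07, edgeR adjusted p = 3.0e-17), and in 5637 cells from 169, 162 and 173 to 79.0, 76.4 and 80.7 CPM (-1.09, SE 0.04, edgeR adjusted p = 1.5e-20). The groups did not overlap. The transcript row with the most counts differed between the lines for this gene, and its rows gave log2 fold changes within 0.02 of each other in each line. Of its exon bases 18.5% overlap exons of SLC19A1 on the other strand, and SLC19A1 moved the other way, with a log2 fold change of 0.48 in CAL-29 and 0.37 in 5637 cells.

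COL17A1 (chr10:105791044-105845638 on GRCh37, minus strand), the hemidesmosomal collagen, rose in 5637 cells from 361, 355 and 358 to 550.3, 535 and 569.6 CPM (log2 fold change 0.62, SE 0.03, edgeR adjusted p = 1.2e-16), 1.54-fold higher. In CAL-29 cells, with a far lower control level, it fell from 32.2, 29.1 and 26.5 to 19.4, 18.4 and 20.3 CPM (-0.60, SE 0.08, edgeR adjusted p = 9.7e-07). The groups were apart in both lines, but the CAL-29 call was lost without siCtrl replicate 2 (-0.60), without siKMT9α replicate 1 (-0.60), 2 (-0.56) or 3 (-0.63) and under scaling by total counts (-0.52). Of the other transmembrane members, COL13A1 was found in 5637 cells at 6.77 to 8.16 CPM with siCtrl and 8.73 to 11.6 CPM with siKMT9α (0.43, SE 0.10, edgeR adjusted p = 6.4e-04), which did not pass. COL25A1 was there at 0.797 CPM or less, with 25.5, 23.5 and 25 counts with siCtrl and 7, 7.5 and 12 counts with siKMT9α (-1.23, SE 0.35), and passed the filter through the siCtrl group, where it was high.

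**Figure D3:**
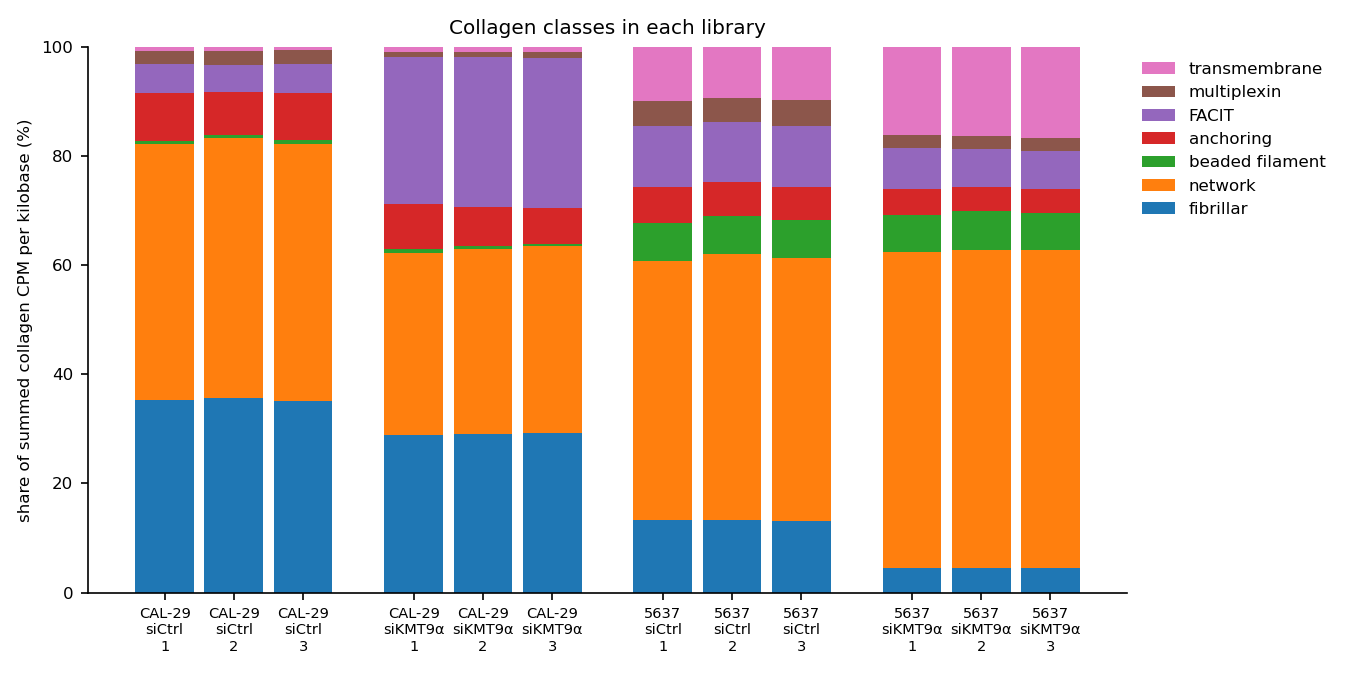
Share of each structural class in the summed collagen level of a library (y axis, % of summed CPM per kilobase; x axis, the 12 libraries by group and replicate number), as stacked bars. In CAL-29 cells the FACIT share stands at 5.11% with siCtrl and 27.3% with siKMT9α, and in 5637 cells the fibrillar share stands at 13.25% and 4.53% with COL1A1 included, or 4.49% and 3.42% without it.

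Because members moved apart, the make-up of the collagen transcripts changed with siKMT9α. Shares here are of summed CPM per kilobase, so that a rise of one class lowers the others, and COL1A1 is included. In CAL-29 cells the fibrillar share went from 35.4% ± 0.289 (SD, n = 3) to 29.1% ± 0.213 and the network share from 47.2% ± 0.399 to 33.8% ± 0.382, while the FACIT share went from 5.11% ± 0.151 to 27.3% ± 0.362. COL12A1 alone made up 24.7% ± 0.329 of the summed level in siKMT9α libraries. In 5637 cells the fibrillar share went from 13.25% ± 0.0537 to 4.53% ± 0.0501, the network share from 48.1% ± 0.593 to 58.2% ± 0.242 and the transmembrane share from 9.65% ± 0.230 to 16.4% ± 0.267. Most of the 5637 fibrillar difference was COL1A1 itself, whose fall chose the family: with COL1A1 left out the fibrillar share was 4.49% ± 0.0726 and 3.42% ± 0.0756 there, and 33.3% ± 0.277 and 28.6% ± 0.231 in CAL-29 cells. Left out in the same way, the FACIT share of CAL-29 cells went from 5.28% ± 0.150 to 27.4% ± 0.360 and their network share from 48.7% ± 0.492 to 34.1% ± 0.377, and in 5637 cells the network share went from 53.0% ± 0.645 to 58.8% ± 0.254 and the transmembrane share from 10.6% ± 0.255 to 16.6% ± 0.269.

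Collagen transcripts of the control cells were compared between the lines, a comparison that the choice of the family did not use. In 1 model over all 12 libraries, 14 of the 35 members tested (40.0%) were higher and 13 (37.1%) lower in 5637 siCtrl than in CAL-29 siCtrl cells at p below 1e-06. These shares stood beside 30.7% higher and 29.0% lower of 15395 genes, so differences between the lines were common in all genes. COL3A1, COL4A3, COL5A1, COL5A3, COL13A1, COL21A1, COL25A1 and COL28A1, all among those called, passed the filter only through the line where they were high. Per kilobase, the order of levels in CAL-29 siCtrl cells opened with COL4A2 (189 ± 9.90 CPM per kilobase) and COL5A1 (174 ± 10.3). Their ranges overlapped, but both were read in the same libraries, where their shares of the summed level were 23.7% ± 0.434 and 21.9% ± 0.223. Then came COL4A1 (117 ± 5.35), followed by COL7A1 (67.5 ± 5.85) and COL5A2 (66.0 ± 3.60), whose ranges overlapped. COL4A4, COL4A5, COL12A1 and COL1A1 came next, between 28.3 and 25.4. In 5637 siCtrl cells COL4A2 (215 ± 7.05) led, followed by COL4A1 (79.6 ± 1.42), then COL17A1 (63.8 ± 0.571) and COL1A1 (63.0 ± 0.787), which lay within their spread, and COL7A1 (43.6 ± 2.78).

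**Figure D4:**
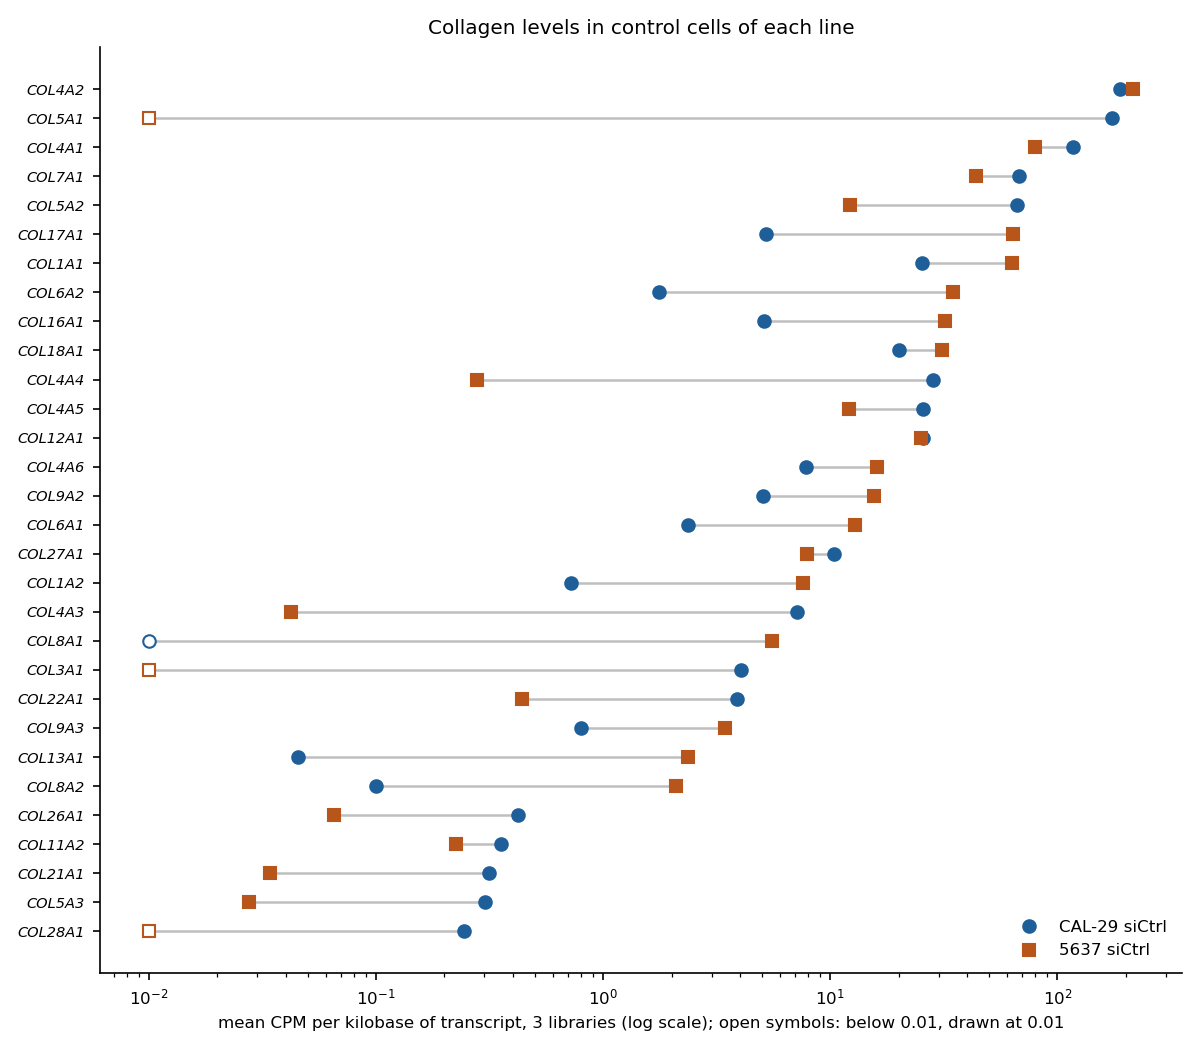
Mean level in siCtrl cells (x axis, CPM per kilobase of transcript, log scale, 3 libraries a line) of the expressed collagens with at least 0.2 CPM per kilobase in a line (y axis), for CAL-29 (circles) and 5637 cells (squares); open symbols mark levels below 0.01, drawn at 0.01. COL4A2 and COL12A1 stand close in both lines, whereas COL5A1, COL3A1 and COL8A1 were at or near 0 in one of them.

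Higher in 5637 control cells were the type I chains COL1A1 (log2 difference 1.37, SE 0.04, edgeR adjusted p = 2.5e-23) and COL1A2 (3.46, SE 0.11, edgeR adjusted p = 2.4e-22), the type VI chains COL6A1 (2.52, SE 0.08, edgeR adjusted p = 1.3e-21) and COL6A2 (4.38, SE 0.07, edgeR adjusted p = 1.2e-29), COL16A1 (2.71, SE 0.05, edgeR adjusted p = 7.3e-27) and COL17A1 (3.68, SE 0.05, edgeR adjusted p = 6.6e-30). COL4A6, COL9A2, COL9A3, COL18A1, COL8A1, COL8A2, COL13A1 and COL25A1 made up the rest of the 14. COL25A1 had 0 counts in the CAL-29 siCtrl libraries and was at least 19.3-fold higher in 5637 cells, taking 3 counts over the 3 libraries as the floor.

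Lower in 5637 control cells were COL4A4 (log2 difference -6.59, SE 0.07, edgeR adjusted p = 4.0e-33), COL4A3 (-7.30, SE 0.13, edgeR adjusted p = 1.1e-27), COL5A2 (-2.37, SE 0.05, edgeR adjusted p = 2.5e-26), COL22A1 (-3.07, SE 0.13, edgeR adjusted p = 4.8e-19), COL4A5 (-1.01, SE 0.05, edgeR adjusted p = 1.7e-17), COL7A1 (-0.56, SE 0.06, edgeR adjusted p = 6.4e-10), COL4A1 (-0.49, SE 0.04, edgeR adjusted p = 5.7e-12) and COL27A1 (-0.32, SE 0.05, edgeR adjusted p = 6.7e-07), with COL3A1, COL5A1, COL5A3, COL21A1 and COL28A1. COL5A1 was at least 48809-fold lower in 5637 cells by the same floor. The call for COL27A1 was lost when any of 9 libraries was left out (-0.33 to -0.27), all but CAL-29 siCtrl replicate 3, CAL-29 siKMT9α replicate 1 and 5637 siCtrl replicate 1, and that for COL21A1 without CAL-29 siCtrl replicate 3 (-2.80) or 5637 siCtrl replicate 1 (-3.17) or 3 (-2.96). COL12A1 did not differ beyond its error (0.05, SE 0.05, edgeR adjusted p = 0.38), and COL4A2 stood at 0.25 (SE 0.05, edgeR adjusted p = 7.7e-06), short of the threshold but past it with DESeq2 (0.23, adjusted p = 3.3e-07), with no filter on low counts (0.27, adjusted p = 3.0e-10) and without CAL-29 siCtrl replicate 1 (0.29, adjusted p = 3.8e-09).

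The difference in response between the lines was tested for the 20 members other than COL1A1 that had a mean of 10 or more counts in each line. With the CAL-29 response taken from the 5637 response, 12 members were higher and 4 lower at p below 1e-06, beside 8.02% and 9.73% of 13610 genes. Among the 4 is COL8A1, which reached a mean of 10 counts in CAL-29 cells only through siKMT9α libraries, so its difference is a description. The largest positive differences were those of COL4A2 (log2 difference of responses 1.93, SE 0.06, edgeR adjusted p = 7.5e-20) and COL4A1 (1.64, SE 0.06, edgeR adjusted p = 4.7e-19), which fell in CAL-29 cells and not in 5637 cells. The largest negative ones among well-counted members were those of COL12A1 (-1.96, SE 0.07, edgeR adjusted p = 1.5e-18) and COL9A2 (-1.88, SE 0.11, edgeR adjusted p = 1.2e-14). COL18A1, COL4A6, COL7A1, COL16A1 and COL6A2, which fell in both lines, all fell further in CAL-29 cells, by 1.22, 1.34, 0.62, 0.58 and 0.85 on the log2 scale. Scaling by total counts ended this call for COL7A1 (0.50), COL16A1 (0.46) and COL6A2 (0.74), and leaving out 10 and 7 of the 12 libraries in turn ended those of COL16A1 and COL6A2. COL1A2 (-0.69, SE 0.19, edgeR adjusted p = 0.0029), COL9A3, COL4A4 and COL11A2 did not pass. The difference for COL4A4 was -0.04 (SE 0.14). COL1A1 itself differed by 0.16 (SE 0.06) between the lines, given without a test.

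Collagen chains are hydroxylated, glycosylated, folded and exported through the secretory pathway before their ends are trimmed and the fibres cross-linked, and the genes for these steps were examined as a list of 38, with 9 collagen receptors beside them. In CAL-29 cells 7 of 33 tested processing genes fell and 5 rose past 1e-06 (21.2% and 15.2%, beside 15.0% and 15.0% of all genes), and in 5637 cells 14 of 34 fell and 6 rose (41.2% and 17.6%, beside 17.6% and 18.0% of all genes). Of the receptors 4 of 7 fell in CAL-29 and 1 of 6 in 5637 cells, and none rose past the threshold in either line with edgeR or DESeq2, with 1 and 4 higher at an unadjusted p below 0.05 (edgeR). Their medians were -0.12 and -0.23 for processing genes and -1.96 and 0.14 for receptors, beside -0.02 and -0.01 for all genes. Among the CAL-29 falls, the receptor ITGA11 passed the filter through the siCtrl group, where it was high (12.4, 12.8 and 14.8 CPM against 0.292, 0.427 and 0.318 CPM). The processing gene ADAMTS14 did likewise (2.49, 3.01 and 1.97 CPM against 0.649, 0.244 and 0.358 CPM). Among the 5637 falls, CREB3L1 of the folding and export genes did so too (1.72, 2.22 and 1.60 CPM against 0.375, 0.0369 and 0.263 CPM). Of the 4 receptors higher in 5637 cells, LAIR1 and DDR2 passed the filter through the siKMT9α group, where they were high. LAIR1 had 0.123, 0 and 0.393 CPM with siCtrl and 0.600, 0.591 and 0.624 CPM with siKMT9α. DDR2 had 0.245, 0.128 and 0.0281 CPM, then 0.674, 0.406 and 0.394 CPM.

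By step, and against these same shares of all genes, 2 of 13 hydroxylation and glycosylation genes fell and 2 rose in CAL-29 cells, and 5 of 12 fell and 3 rose in 5637 cells. The genes of folding and export gave 1 lower and 3 higher of 9 in CAL-29 and 5 lower and 3 higher of 10 in 5637 cells, and those of propeptide removal and cross-linking, 11 and 12 tested, 4 lower and none higher in each line (edgeR and DESeq2), with 1 and 0 higher at an unadjusted p below 0.05 (edgeR). Past 1e-06 in both lines, COLGALT1, which adds galactose to hydroxylysine, fell by 1.99 in CAL-29 and 1.52 in 5637 cells on the log2 scale, and P4HA2, a prolyl 4-hydroxylase catalytic subunit, fell by 0.81 and 0.39. P4HB, its partner subunit and the protein disulfide isomerase, rose by 1.16 and 1.10. SEC23A, a COPII coat protein, fell by 0.99 and 0.97, whereas its coat partner SEC24D rose by 0.56 and 0.36 and the prolyl isomerase FKBP14 by 0.65 and 0.96.

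Outside the cell, BMP1, the procollagen C-proteinase, fell by 1.50 in CAL-29 and 0.59 in 5637 cells, and the lysyl oxidase LOXL2, which cross-links fibres, fell by 1.13 and 0.88. MRC2, an endocytic collagen receptor, fell by 1.96 and 1.87. P3H2, a prolyl 3-hydroxylase, and FKBP10, a procollagen chaperone, rose in CAL-29 (0.39 and 0.58) and fell in 5637 cells (by 0.68 and 0.26). SERPINH1, the collagen chaperone HSP47, which is no member of the group past the threshold in both lines and is named here after its values were seen, fell in 5637 cells (-0.37, edgeR adjusted p = 1.1e-11) and had -0.28 (edgeR adjusted p = 4.8e-05) in CAL-29 cells.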

How the data were processed

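By the authors, STAR was used for alignment to hg19, Homer for counting per RefSeq transcript and edgeR for testing. The deposited values were estimated counts without normalization, of which 37.3% were not whole, for 37400 transcript rows. The authors' own p-values, adjusted p-values and log2 fold changes in the same tables were not used. For each symbol the row with the most counts was kept and rounded to whole numbers. With edgeR 4.0.16 in R 4.3.3, TMM scaling, filterByExpr and the quasi-likelihood F test were applied to each line, and to all 12 libraries with 1 mean per group for the control levels and the difference in response. Genes were called at an unadjusted p below 1e-06, as in the study. The difference in response was read only for genes with a mean of 10 or more counts in each line. CPM values were scaled within each line. Levels per kilobase used the canonical GENCODE transcript.

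The members, the processing list and the markers were chosen with earlier results of these data known. Each member with a mean of 10 or more counts in a line was named, with every library for COL1A1, COL1A2 and members past 1e-06 in both lines or with a mean of 500 or more counts in a line. Whether siCtrl and siKMT9α libraries were paired is not known, and they were tested as unpaired. For a single value, 3 libraries a group allow an exact permutation p of 0.1 at the lowest. The tests were checked on counts drawn with known changes. Floors cover counting error only, and SEs include the spread between libraries. Family and class shares without COL1A1 were added after seeing the data. Alternatives were other scalings (total counts, upper quartile), DESeq2 1.42.0, no filter or at least 10 counts in every library, every transcript row, unrounded counts, a replicate block and each library left out.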

Additional observations from a re-analysis of the deposited data

Results flagged for a closer look

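For 16 members the response to siKMT9α differed between the lines at p below 1e-06 by the interaction term over all 12 libraries (edgeR quasi-likelihood test). The differences, 5637 response less CAL-29 response on the log2 scale, were 1.93 for COL4A2, 1.64 for COL4A1, 1.48 for COL22A1, 1.37 for COL6A1, 1.34 for COL4A6, 1.25 for COL27A1, 1.22 for COL18A1, 1.21 for COL17A1, 0.85 for COL6A2, 0.62 for COL7A1, 0.60 for COL4A5 and 0.58 for COL16A1. They were negative for COL5A2 (-0.52), COL9A2 (-1.88), COL12A1 (-1.96) and COL8A1 (-3.58).

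The difference for COL8A1 rests on 4 counts in CAL-29 siCtrl replicate 2 and is given as a description. Leaving out any of 9 libraries ended its call, with values between -3.62 and -3.02, and without replicate 2 of CAL-29 siCtrl the estimate was -7.28, against control libraries at 0 counts. The calls for COL16A1 and COL6A2 likewise ended when any of 10 and any of 7 libraries were left out, at values from 0.50 to 0.63 and from 0.77 to 0.92. Line, medium, reagent and siRNA concentration cannot be told apart in any of these differences.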

How the results depend on the processing

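Most values kept their direction and their side of the threshold: of the alternatives for single genes 1769 did so, 59 lost the call, 19 gained it, 3 moved by more than the spread between replicates and 5 changed sign. The 5 were COL12A1 in 5637 cells without siCtrl or siKMT9α replicate 2 (0.023 and 0.037, over a range of -0.079 to 0.037 with each library left out), COL4A1 in 5637 cells without siKMT9α replicate 2 (0.00011, range -0.036 to 0.00011), the control difference of COL12A1 under upper quartile scaling (-0.0021) and the difference in response of COL4A4 without 5637 siKMT9α replicate 3 (0.021, range -0.095 to 0.021). None of the 5 had passed the threshold. The collagens that rose in CAL-29 cells numbered 2 with no filter on low counts, 2 with the replicate block and 3 at an adjusted p below 0.05. COL8A1, whose change is a description, is among them each time. Collagens that fell numbered 25 in CAL-29 and 14 in 5637 cells at that adjusted p. The processing and receptor genes that rose in CAL-29 cells, 5 as reported, numbered 8 under scaling by total counts, with DESeq2, with no filter and with the replicate block, and between 4 and 8 with each library left out, 8 without siCtrl replicate 1. Collagens lower in 5637 control cells numbered 7 where 10 counts were required in every library, which removes genes absent from a line. The cause was not tested otherwise.

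For libraries of siCtrl and siKMT9α with the same title number, deviations from the group means were correlated across genes. The correlations were 0.08, -0.01 and 0.05 in CAL-29 and 0.05, -0.01 and -0.0016 in 5637 cells. Titles and descriptions of the samples numbered the knockdown libraries differently, and the title numbers were used. With siCtrl replicates 1, 2 and 3 set against siKMT9α replicates 1, 3 and 2, the values were 0.08, 0.02 and 0.03 in CAL-29 and 0.05, 0.04 and 0.03 in 5637 cells. These values do not settle whether the samples were paired, and the main tests took them as unpaired. With the replicate block COL6A1, COL8A1 and COL21A1 passed in CAL-29 cells, and the control differences of COL21A1, COL25A1, COL27A1 and COL28A1 did not. For COL8A1 and COL21A1, which passed the filter through the group where each was high, the CAL-29 change stays a description. Depth limits COL5A3, COL6A3, COL11A1, COL21A1, COL24A1, COL25A1, COL26A1 and COL28A1, which had at most 59.5 counts in every library of a line where each was measured. The same limit holds for COL8A1, COL8A2 and COL9A3 in CAL-29 cells and for COL11A2 in 5637 cells.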
